A study of Mus musculus with 54 samples.

Results

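The 49 genes described here encode the mouse Wnt ligands, their receptors, the proteins that carry the signal to the nucleus and the secreted inhibitors. They were taken by symbol from a fixed list, and all 49 were found among the 21631 protein-coding genes of the mouse assembly mm10 (GRCm38.p6). By role they are 19 ligands, 10 Frizzled receptors, 2 co-receptors, 3 receptors for R-spondins, 2 ubiquitin ligases that remove Frizzleds, 4 genes for beta-catenin and its destruction complex, 4 nuclear factors of the TCF/LEF family and 5 secreted inhibitors. The series asked how chromatin differs between mouse pancreatic cancer cells and a gemcitabine-resistant line derived from them, gemcitabine being a cytidine analogue that stops DNA synthesis. Of the 54 labelled samples, in 18 groups of 3, the 6 Hi-C samples were used, 3 of each kind of cell. In Hi-C, fragments that touch in the fixed nucleus are ligated and read as pairs. The 48 samples of other assays were not analysed here.

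The parental cells were labelled wild type and given DMSO, the solvent. The resistant cells had been selected by exposure to rising gemcitabine and were given gemcitabine in DMSO, so resistance and treatment cannot be told apart. Both kinds of cell are labelled as coming from a primary tumor, with no clone, strain or genotype beyond that. Doxorubicin is named in place of gemcitabine in the series text on Hi-C, and the labels of the samples, which name gemcitabine, were followed. The files gave 1 list of loops and 1 list of domains per condition, so there is no replicate error, no difference between the conditions was tested, and the read depth behind each list is unknown. The parental lists held 6829 loops and 3997 domains, and the resistant lists 7169 loops and 4196 domains. They hold no expression values, so the cell label could not be checked against marker genes.

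Wnt proteins are secreted, lipid-modified ligands that bind a Frizzled receptor together with the co-receptor Lrp5 or Lrp6. In the absence of ligand, Apc and Axin hold beta-catenin in a complex that marks it for destruction. When ligand binds, beta-catenin accumulates, enters the nucleus and joins TCF/LEF factors at their target genes. The pathway patterns the embryo and keeps stem cells in adult epithelia, and in human pancreatic cancer, mutations of RNF43 leave tumor cells dependent on their own Wnt secretion.

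A loop joined a pair of 5 kb bins, called anchors, and belonged to a gene if either bin came within 5 kb of a gene end. A loop of the other list matched it if neither anchor differed by more than 10 kb. Matched loops are described as found in both lists, and the rest are called parental-only or resistant-only. Loops with an anchor inside a gene and none near its ends were counted apart as body loops, and most of them ran from that anchor to a place outside the gene. Of the 49 genes, 21 had a parental loop at an end (42.9%, exact 95% interval 28.8 to 57.8), where 23.3% of all protein-coding genes had one. In the resistant list 20 had one (40.8%, 27 to 55.8), beside 23.8% of all genes. A loop in either list was present at 27 (55.1%, 40.2 to 69.3), beside 33.9% of all genes, and 14 had a loop in both lists, beside 13.2% of all genes. A parental loop with no resistant one was present at 7 members (10.1% of all genes), and the reverse at 6 (10.6% of all genes). At 12 members a matched loop stood at an end, beside 13.4% of all genes. Parental-only loops lay at 13 members, where 13.6% of all genes had one, and resistant-only loops also at 13, where 14.2% of all genes had one. These 26.5% shares had intervals of 14.9 to 41.1, which cover counting error only. The members thus carried more loops than genes in general, with no lean to either condition: 10 had more resistant-only than parental-only loops (11.8% of all genes did) and 10 had more parental-only loops (11.3% of all genes did).

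**Figure D1:**
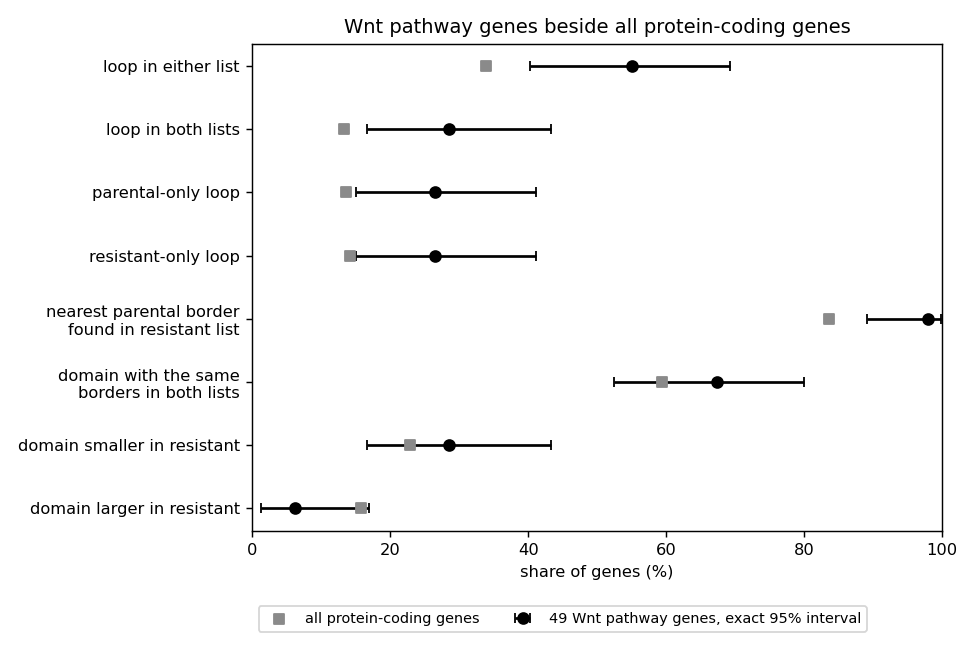
Share of the 49 Wnt pathway genes (black points, with exact 95% intervals for counting error) and of all 21631 protein-coding genes (grey squares) that met each criterion, in percent. A loop in either list was present at 55.1% of the members and 33.9% of all genes, and the nearest parental border was found again for 98.0% and 83.6%.

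Counted once each, 28 parental loops touched a member's end, of which 14 were found in the resistant list (50.0%, exact 95% interval 30.6 to 69.4). In the resistant list 25 loops did, and 13 of them were found in the parental list (52.0%, 31.3 to 72.2). Over loops at the ends of all genes the shares were 46.2% of 3613 parental and 44.8% of 3729 resistant loops. The members' loops had a median span of 125 kb (parental, from 45 to 480 kb) and 185 kb (resistant, from 15 to 700 kb), where loops at the ends of all genes had medians of 105 and 100 kb. Another gene's end stood at the far anchor, or the member's own other end, in 9 of the 28 parental (32.1%) and 7 of the 25 resistant loops (28%), near the 32.5% and 31.4% of loops at all gene ends. Among the strongest calls, the 3414 parental and 3584 resistant loops with the lowest p-values, the shares over all gene ends were higher, at 60.5% and 58.7%. Each loop below is therefore given with the p-value that the authors' caller assigned to it. A lower value marks a stronger call within a list, and the largest value kept was 0.0497.

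**Figure D2:**
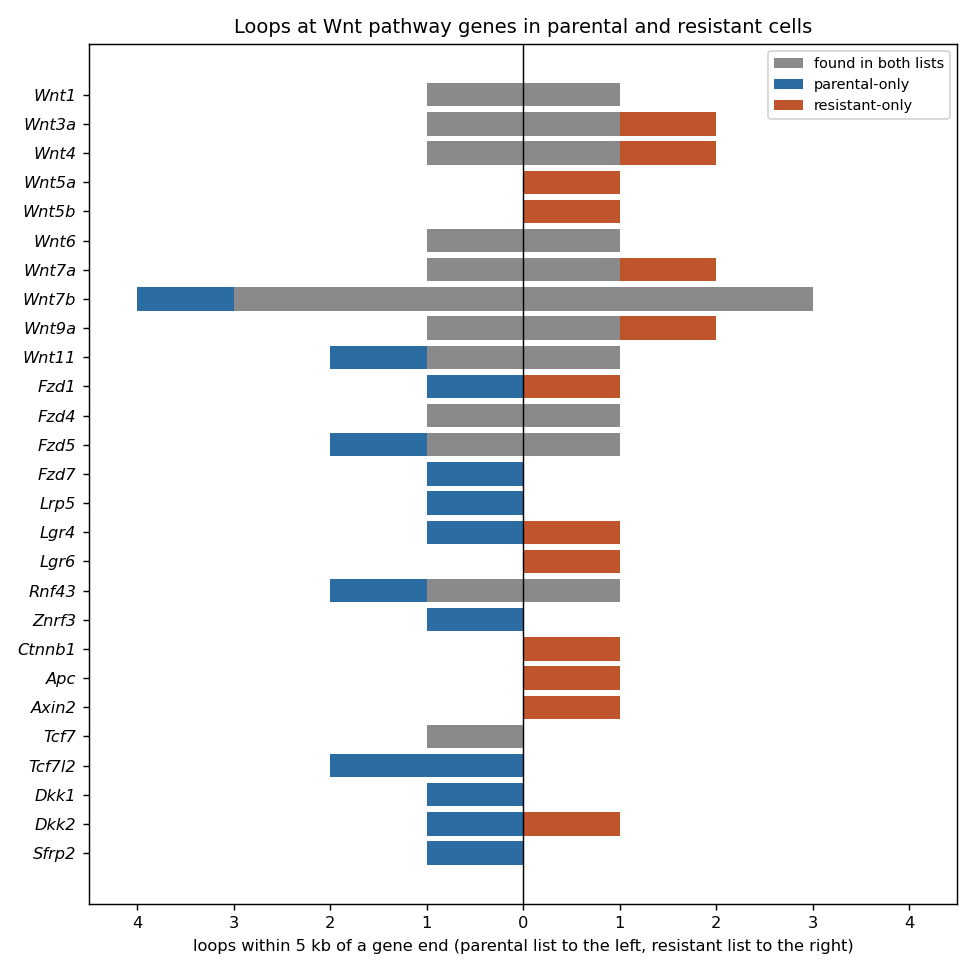
Number of loops at each of the 27 members that had any at a gene end, with the parental list to the left of 0 and the resistant list to the right. Grey bars are loops found in both lists, blue bars parental-only and orange bars resistant-only loops, and Wnt7b had the highest number, with 4 parental and 3 resistant loops. The parental loop of Tcf7 is grey with no resistant partner drawn because its match in the resistant list was a body loop.

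The starts of several members lay in or beside an anchor seen in 1 list. To show the sequence at those anchors, the 250 bases before a listed start were read from RefSeq promoter windows of GRCm38.p6, which held 43 windows for 33 of the 49 members. The windows below are examples. They lie at the start-side loops of Fzd7, Tcf7l2 and Dkk1, which were parental-only, and of Lgr6 and Axin2, which were resistant-only. At Wnt11, 1 loop was found in both lists and 1 was parental-only. Sfrp2, Dkk2, Fzd1, Fzd5, Rnf43, Lgr4, Ctnnb1 and Wnt7a also had a loop of 1 list at a start. Their windows are not shown and held neither a TCF/LEF nor a forkhead word. The second Tcf7l2 window, at an internal start, and the Wnt1 window are shown because they hold a forkhead match. Windows of Fzd10 and Lef1, which had no loop at an end, also hold one and are not shown. Capitals mark matches, on either strand, to the TCF/LEF words (CTTTGAT as well as CTTTGAA, then CTTTGTT as well as CTTTGTA) or the forkhead words (TGTTTAC as well as TGTTTGC), and windows without capitals hold none.
Fzd7 (chr1:59481897-59482146, plus strand): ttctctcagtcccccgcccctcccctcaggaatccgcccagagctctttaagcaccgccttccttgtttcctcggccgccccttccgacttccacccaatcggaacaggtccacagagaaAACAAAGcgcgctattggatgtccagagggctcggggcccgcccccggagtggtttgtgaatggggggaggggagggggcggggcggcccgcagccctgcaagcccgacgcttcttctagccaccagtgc
Tcf7l2 (chr19:55741560-55741809, plus strand): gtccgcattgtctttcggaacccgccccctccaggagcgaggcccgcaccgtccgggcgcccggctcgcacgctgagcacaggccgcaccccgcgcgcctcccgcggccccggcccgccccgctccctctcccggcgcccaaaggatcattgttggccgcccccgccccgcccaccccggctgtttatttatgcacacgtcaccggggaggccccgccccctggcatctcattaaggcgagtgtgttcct
Tcf7l2 internal start (chr19:55895071-55895320, plus strand): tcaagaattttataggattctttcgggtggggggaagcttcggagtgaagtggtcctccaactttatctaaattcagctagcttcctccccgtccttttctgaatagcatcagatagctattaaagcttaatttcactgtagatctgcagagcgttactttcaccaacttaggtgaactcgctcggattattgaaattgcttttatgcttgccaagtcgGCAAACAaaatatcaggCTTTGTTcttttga
Dkk1 (chr19:30549497-30549746, minus strand): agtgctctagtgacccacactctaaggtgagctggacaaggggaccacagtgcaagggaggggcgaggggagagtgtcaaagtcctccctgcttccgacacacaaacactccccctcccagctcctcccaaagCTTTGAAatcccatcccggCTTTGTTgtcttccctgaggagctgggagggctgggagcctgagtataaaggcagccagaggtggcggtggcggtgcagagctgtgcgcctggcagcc
Lgr6 (chr1:135105277-135105526, minus strand): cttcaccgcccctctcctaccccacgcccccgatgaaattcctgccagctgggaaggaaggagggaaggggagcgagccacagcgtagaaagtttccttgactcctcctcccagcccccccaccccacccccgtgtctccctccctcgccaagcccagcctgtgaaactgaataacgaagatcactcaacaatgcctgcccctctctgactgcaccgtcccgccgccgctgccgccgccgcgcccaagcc
Axin2 (chr11:108920099-108920348, plus strand): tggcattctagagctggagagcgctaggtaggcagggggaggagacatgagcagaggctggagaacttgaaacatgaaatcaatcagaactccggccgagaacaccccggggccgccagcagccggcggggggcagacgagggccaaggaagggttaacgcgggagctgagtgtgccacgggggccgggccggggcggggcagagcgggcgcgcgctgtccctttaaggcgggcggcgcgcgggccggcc
Wnt11 (chr7:98834862-98835111, plus strand): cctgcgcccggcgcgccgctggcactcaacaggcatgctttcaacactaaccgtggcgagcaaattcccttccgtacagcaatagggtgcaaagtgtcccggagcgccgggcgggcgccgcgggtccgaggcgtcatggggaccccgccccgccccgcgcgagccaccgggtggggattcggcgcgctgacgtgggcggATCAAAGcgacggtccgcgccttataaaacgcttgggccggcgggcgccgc
Wnt1 (chr15:98789607-98789856, plus strand): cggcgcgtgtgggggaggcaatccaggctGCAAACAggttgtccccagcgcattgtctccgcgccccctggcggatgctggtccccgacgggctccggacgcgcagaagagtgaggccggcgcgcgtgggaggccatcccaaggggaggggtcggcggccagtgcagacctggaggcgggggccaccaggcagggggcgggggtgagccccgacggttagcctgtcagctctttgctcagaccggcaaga

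The Dkk1 window held 2 TCF/LEF words close to each other, and the Fzd7 and Wnt11 windows held 1 each, written on the opposite strand. The internal Tcf7l2 window held a forkhead word and a TCF/LEF word near its 3′ end, and none lay in the window at the Tcf7l2 start that the parental loops touched. Over all members, 6 of the 43 windows held a TCF/LEF word (14%), beside 14.8% of all 32851 windows. A forkhead word stood in 5 (11.6%), beside 7.29% of all windows, and 2 of those 5 were overlapping Lef1 windows that share the same word. The CTCF core stood in no member window, and in 0.508% of all windows. A match describes the letters of a window and is not evidence that a factor binds there.

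Among the ligands, 8 of 19 had a parental loop at an end, beside 23.3% of all genes. A resistant one was present at 10 of 19, beside 23.8% of all genes. The 8 with a parental loop each had a loop found in both lists. The strongest was at Wnt9a, a ligand known from joint and blood stem cell development. Its start was joined over 175 kb to an anchor at Zkscan17, with a p-value of 3.52e-10 (parental, rank 101) and 3.67e-10 (resistant, rank 95). Wnt3a, a classical activator of beta-catenin, lies 16.1 kb from Wnt9a. Its start had a loop in both lists, of 65 kb and 5.57e-06 in the parental list and of 55 kb and 1.7e-08 in the resistant list. A weak resistant-only loop of 75 kb, with a p-value of 0.031 and rank 6878, joined the ends of Wnt3a and Wnt9a to each other.

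Wnt7b, a ligand that acts on the secreting cells themselves in human pancreatic cancer lines, was the only member with 3 or more loops at its ends in a list, which 1.28% of all genes had. The gene, on chromosome 15, had 4 parental and 3 resistant loops, all anchored at its edge of higher coordinate in mm10 and running towards lower coordinates. The 105 kb loop had a parental p-value of 2.42e-09 and a resistant one of 3.31e-09. The 315 kb loop was called at 1.17e-08 in the parental and at 2.91e-05 in the resistant list. A loop of 260 kb in the parental and 265 kb in the resistant list was called at 1.85e-05 and 6.58e-06. The remaining loop, of 190 kb and 0.000759, was parental-only, although both of its anchors were used by other resistant loops. The gene therefore had the same long contacts in both lists apart from 1 weak call.

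Other ligands had 1 loop in both lists. Wnt1, the ligand first found as a mammary oncogene, was joined to an anchor at Ddx23 and Rnd1 over 135 kb in the parental list (3.8e-06) and 130 kb in the resistant list (3.68e-08). Wnt6 had a short loop of 45 kb in the parental list (1.48e-06) and 35 kb in the resistant list (8.4e-08), and the parental anchor reached Cyp27a1. Wnt11, which signals mostly without beta-catenin, had a 95 kb loop at its start in both lists, called at 1.9e-08 and 1.07e-06. A second Wnt11 loop of 235 kb at the same anchor was parental-only (0.00028). At Wnt7a, known for limb and uterine patterning, a 125 kb loop at the start was called at 3.87e-09 (parental) and 8.65e-09 (resistant).

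Resistant-only loops lay at 6 ligands of 19, beside 14.2% of all genes. The Wnt3a and Wnt9a pair shares 1 of these loops, and 4 of the 5 were among the strongest calls. At Wnt4, which directs kidney tubule and ovary formation, both lists had a 125 kb loop at the gene's end (2.07e-05 parental, 4.42e-05 resistant). The resistant list added a 225 kb loop at the same end with a p-value of 6.5e-10, rank 120 of 7169. No parental loop came closer than 90 kb to it when both anchors were compared. At Wnt5b, a ligand that acts mainly without beta-catenin, a 215 kb loop from the gene's end to Dcp1b was resistant-only (1.17e-08, rank 352). At Wnt7a a 255 kb loop from the start to Hdac11, a histone deacetylase gene, was resistant-only (6.99e-06). Wnt5a, the related beta-catenin-independent ligand, had only a 700 kb resistant loop (0.000105), which was the longest at any member and crossed 1 resistant domain border. Parental-only loops lay at 2 ligands, beside 13.6% of all genes, and were the Wnt7b and Wnt11 loops named above.

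The ligands Wnt2, Wnt2b, Wnt3, Wnt8a, Wnt8b, Wnt9b, Wnt10a, Wnt10b and Wnt16 had no loop at an end in either list. Of these, Wnt9b, an inducer of the kidney tubule, had a parental-only body loop of 150 kb (2.37e-08, rank 522). It ran past the gene's edge of higher coordinate and beyond Wnt3, whose nearer edge lay 9175 bases from the Wnt9b anchor, outside the window. Wnt5b had body loops as well. A loop of 220 kb in the parental list (0.00039) and 215 kb in the resistant list (3.18e-08) was found in both, and loops of 430 kb to an anchor at Rad52 and Wnk1 (2.23e-06) and of 150 kb (0.00568) were resistant-only. A resistant-only loop of 180 kb (2.83e-07) ended 6479 bases from Wnt16 and so just outside the 5 kb window.

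Among the Frizzled receptors, 4 of 10 had a parental and 3 of 10 a resistant loop at an end. Of all genes, 23.3% and 23.8% had one, within the exact 95% intervals of 12.2 to 73.8% and 6.67 to 65.2%. Fzd4, the receptor for Norrin in retinal vessels, had a 250 kb loop in both lists (5.02e-07 parental, 6.78e-06 resistant), 4891 bases from its end and thus just inside the window. Fzd5, on which human pancreatic cancer lines with RNF43 mutations depend, had a loop of 180 kb in the parental list (8.11e-08) and 185 kb in the resistant list (4.93e-05). A second Fzd5 loop of 55 kb, to Plekhm3, was parental-only (0.00107), and a resistant-only loop of 275 kb (3.46e-06) stood 5558 bases away, just outside the window. Fzd7 had 1 loop, a parental-only one of 95 kb (0.001) at its short gene. Fzd1 had a parental-only loop of 155 kb (0.000372) and a weak resistant-only loop of 260 kb (0.0175), which ran to opposite sides of the gene. The parental-only loops at Fzd1, Fzd5 and Fzd7 had higher parental p-values than the Fzd4 and Fzd5 loops found in both lists. Fzd2, Fzd3, Fzd6, Fzd8, Fzd9 and Fzd10 had no loop.

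The co-receptor gene Lrp5 had a parental-only loop of 115 kb at its lower edge (0.000163) and a body loop of 75 kb in the parental list (3.92e-06) and 80 kb in the resistant list (1.11e-06) that was found in both. Its partner Lrp6 had only a resistant-only loop of 75 kb with both anchors inside the gene (0.0002). Of the receptors for R-spondins, secreted proteins that strengthen Wnt signaling, Lgr4 had a different loop called at its ends in each list. In the parental list a 95 kb loop joined the start of Lgr4 to its end, where Ccdc34 also lies (8.36e-06), and in the resistant list a 185 kb loop ran from that end away from the gene (1.51e-05). Both Lgr4 loops were seen in 1 list each, although their anchors were also used by loops of the other list. A 300 kb loop 7647 bases before the start, outside the window, was found in both lists (5.69e-09 and 8.11e-08). At Lgr6 the resistant list joined both ends of the gene over 120 kb (2.47e-07, rank 944), and the parental list had a 25 kb loop with both anchors inside the gene (6.99e-06). Lgr5, a marker of intestinal stem cells, had no loop.

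Rnf43 and Znrf3 encode the ligases that clear Frizzleds from the cell surface. Rnf43 had a loop that joined its start, beside Hsf5, to its end, beside Supt4a, over 70 kb in the parental list (4.54e-05) and 75 kb in the resistant list (4.57e-06). A second loop from its start, of 110 kb, was parental-only (0.000205). Znrf3 had a body loop in both lists, of 185 kb (1.17e-08) in the parental and 180 kb (1.09e-05) in the resistant list. Its only loop at an end was a parental-only call of 180 kb to Kremen1, the gene of a Dickkopf receptor, and with a p-value of 0.0393 it was among the weakest calls of the list.

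For beta-catenin and the destruction complex, no member had a parental loop at an end and 3 of 4 had a resistant one, all of them resistant-only. The start of Axin2, a scaffold that is also a feedback target of the pathway, was joined over 470 kb in the resistant list (7.71e-05), and the parental list had a body loop of 55 kb (0.00257). Apc, the scaffold lost in most human colorectal cancers, had a 15 kb resistant loop at its edge of higher coordinate (0.00271). A body loop of 175 kb at Apc was found in both lists (0.000395 parental, 7.21e-05 resistant) and a 445 kb one was resistant-only (0.000546). Ctnnb1, the beta-catenin gene, had a resistant loop of 340 kb at its start (0.00112) and a parental body loop of 335 kb (0.0019), whose other anchor lay far outside the gene. These 2 Ctnnb1 loops ran between the same pair of places and missed the matching limit by 1 bin, with a largest anchor offset of 15 kb, so the count of resistant-only loops at Ctnnb1 rests on that limit. Axin1 had no loop.

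Among the TCF/LEF factors, 2 of 4 had a parental loop at an end and none had a resistant one. Tcf7l2, the main partner of beta-catenin in intestinal epithelium, had 2 parental-only loops at its start, of 205 kb to one side (2.78e-06) and of 125 kb into the gene (9.67e-05). No resistant loop came within 385 kb of the longer of these or within 390 kb of the shorter when both anchors were compared. A weak resistant-only body loop of 390 kb (0.033) started from the bin in which the 125 kb parental loop ended, ran past the gene and crossed 1 border. The Tcf7 loop, in contrast, was found in both lists and differed only in its class. Its parental anchor, with a span of 90 kb (5.28e-08), lay within 5 kb of the gene's end, and the resistant anchor, 1 bin further in and with a span of 85 kb (1.14e-09), lay 8474 bases from it. Lef1 had parental-only loops of 400 kb (0.00207) and 185 kb (0.0486) with an anchor inside the gene. A resistant-only loop of 470 kb (0.00021), a stronger call, stood 5644 bases from the gene and so just outside the 5 kb window. Tcf7l1, mostly a repressor, had no loop.

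Of the secreted inhibitors, Dkk1, Dkk2 and Sfrp2 had a parental loop and Dkk2 a resistant one. Dkk1, which blocks Lrp5 and Lrp6, had a parental-only loop of 300 kb (9.4e-07) that ended 505 bases from its start, and no resistant loop came within 345 kb of it. Sfrp2, which binds Wnt proteins directly, had a parental-only loop of 480 kb at its start (1e-06), the longest parental loop at a member. Dkk2 had a parental-only loop of 110 kb (0.0031) and a resistant-only loop of 315 kb (0.00401), both weak and both from the same bin, 4735 bases from the start. Dkk3 and Sfrp1 had no loop.

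**Figure D3:**
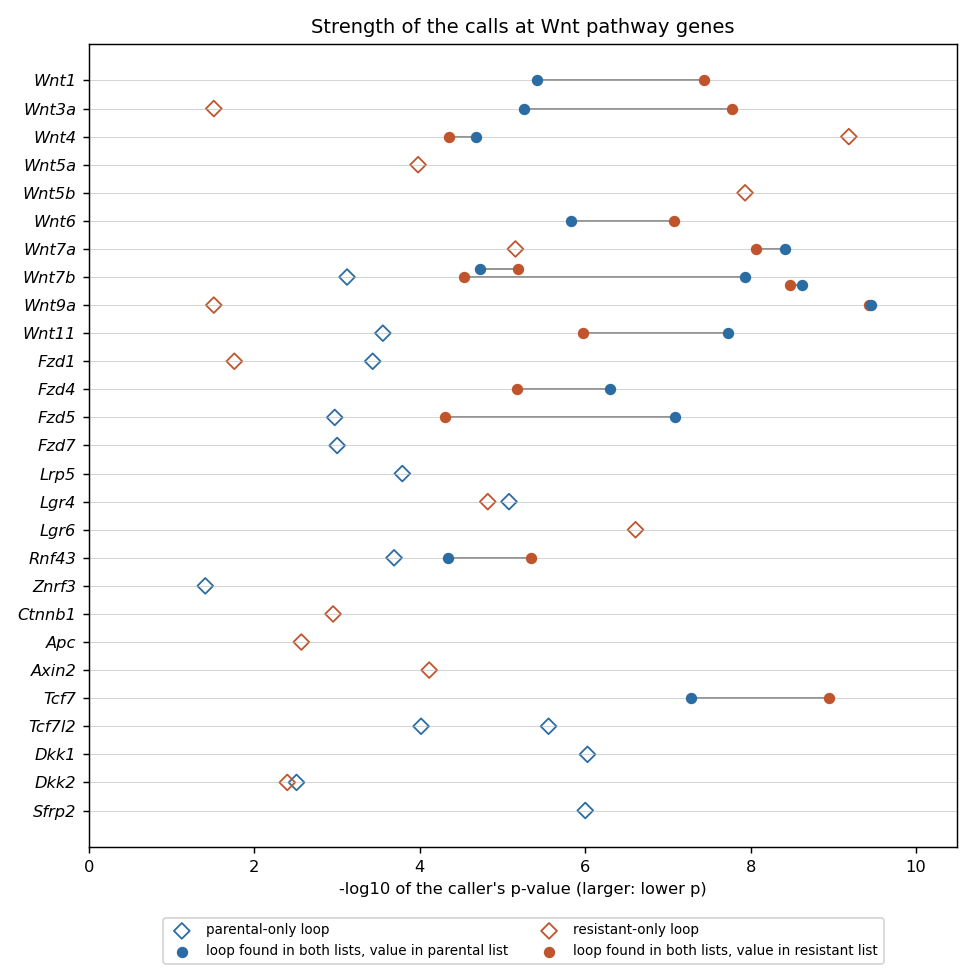
The caller's p-value of every loop at a member's end, as −log10 on a linear axis, with 1 row per gene. Filled points are loops found in both lists, blue for the parental and orange for the resistant value and joined by a line (for Tcf7 the resistant value belongs to a body loop); open diamonds are loops of 1 list. The blue filled points run from 4.54e-05 at Rnf43 to 3.52e-10 at Wnt9a, and the resistant-only loop with the lowest value is that of Wnt4 at 6.5e-10.

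Ligands and the other members differed in how many of their loops were found again, in a grouping chosen after the values were seen and therefore given as a description. Of 12 parental loops at ligands, 10 were found in the resistant list (83.3%, exact 95% interval 51.6 to 97.9), and of 16 parental loops at the other members 4 were (25%, 7.27 to 52.4). In the resistant list it was 10 of 15 loops at ligands (66.7%, 38.4 to 88.2) and 3 of 10 at the others (30.0%, 6.67 to 65.2). The intervals overlapped in both lists. They treat loops as independent, but Wnt7b alone supplied 4 of the 12 parental ligand loops, 3 of them found again, and 3 of the 15 resistant ones. The ligand loops were also the stronger calls: their median rank stood at 25.7% of the parental and 9.44% of the resistant list, against 46.0% and 43.6% for the other members and 40.4% and 38.9% for loops at all genes. Within the strongest calls, as defined above, 10 of 10 parental and 10 of 14 resistant ligand loops were found in both lists, against 4 of 9 and 3 of 6 at the other members. The part that call strength plays in the difference was not tested further.

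Body loops lay at 9 members in the parental list, beside 10.4% of all genes, and at 7 in the resistant list, beside 10.3%. There were 10 such loops in each list, of which 4 parental (40%) and 5 resistant ones (50%) were found in the other list, near the 36.7% and 36.2% of body loops at all genes. With ends and bodies together 30 of the 49 members had a loop in some list (61.2%), beside 43.1% of all genes.

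Topologically associating domains are segments whose DNA meets itself in Hi-C more often than it meets the flanking segments, and a gene's domain was the one that held its midpoint. Each member lay in a domain in both lists. The nearest parental border of 48 of 49 members was found within 20 kb in the resistant list (98.0%, exact 95% interval 89.1 to 99.9), beside 83.6% of all genes, and the exception was Fzd3. The nearest resistant border was found in the parental list for 44 (89.8%), beside 81.0% of all genes. Members lay closer to a border than genes in general, with a median distance of 69.9 kb in each list against 91.5 kb and 87.7 kb, and this nearness was not separated from the shares above. A border within 20 kb of the gene was present for 12 members in the parental list, beside 20.8% of all genes, and for 13 in the resistant list, beside 21.9%.

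Domains with the same 2 borders in both lists, each within 20 kb, held 33 members (67.3%, 52.5 to 80.1), beside 59.3% of all genes. The counts here are of genes, and neighbours such as Wnt6 and Wnt10a, or Wnt3a and Wnt9a, share a domain. The interval treats such genes as independent. The domain was more than 20 kb smaller in the resistant list for 14 members (28.6%), beside 22.8% of all genes, and larger for 3 (6.12%), beside 15.8%. Wnt5a is among both the 33 and the 14. Its borders differed by 20 and 10 kb, and its domain went from 310 to 280 kb. Members' domains had a median of 470 kb in the parental and 400 kb in the resistant list, against 550 kb and 540 kb for all genes. The median number of genes in them went from 7 to 5, against 9 in both lists for all genes. Both borders of the parental domain were found again for 43 members, beside 69.4% of all genes, a count that does not see a border added inside a domain.

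**Figure D4:**
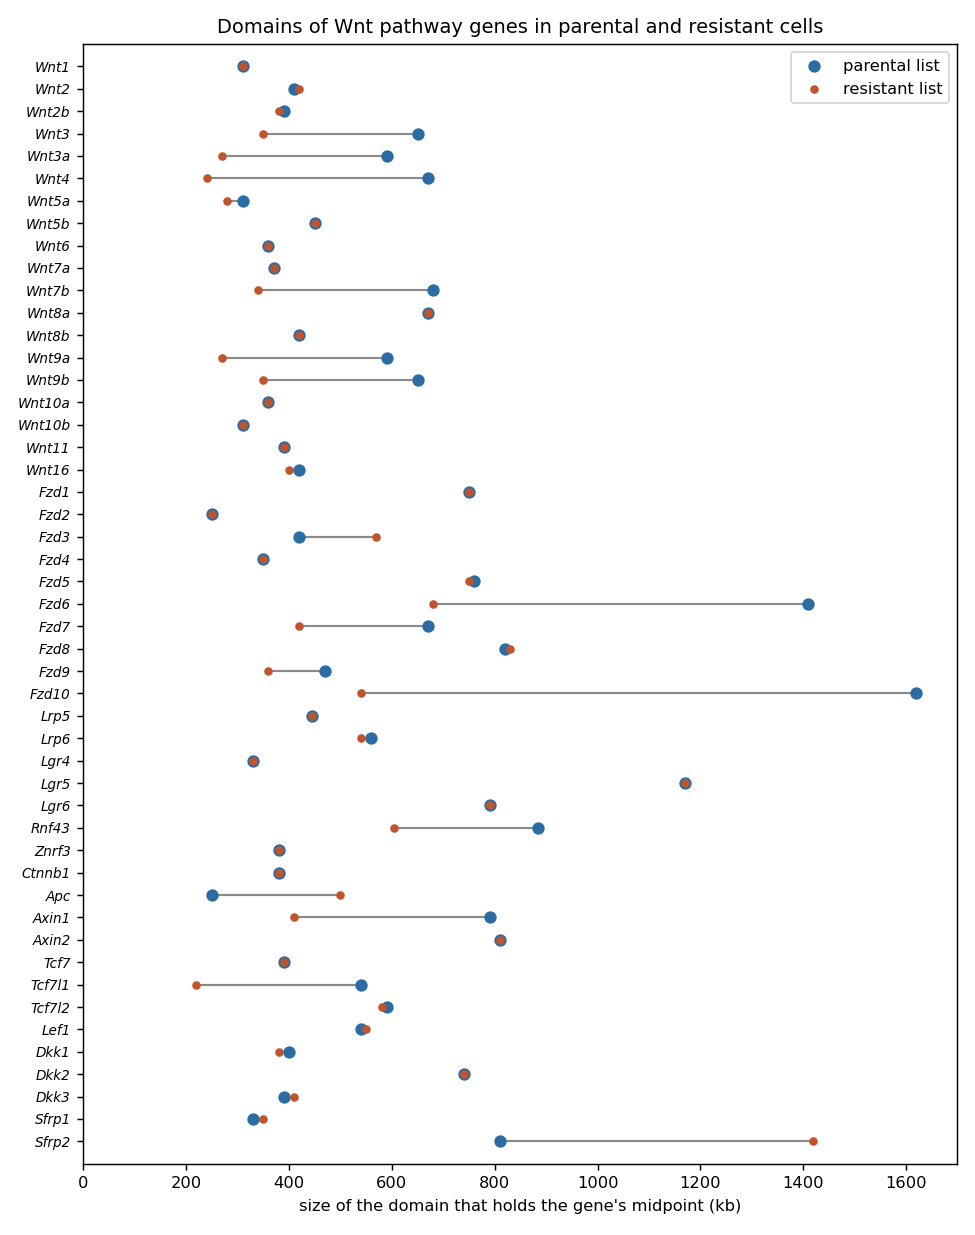
Size, in kb, of the domain that holds each of the 49 members in the parental list (large blue points) and the resistant list (small orange points), joined by a line. Fzd10 fell from 1620 to 540 kb and Fzd6 from 1410 to 680 kb, Sfrp2 went from 810 to 1420 kb, and the points of the 33 members with the same borders nearly coincide.

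At 6 of the 7 ligands with a smaller domain, Wnt5a being the exception, 1 border of the resistant domain had no parental border within 20 kb. Wnt4 lay in a domain of 670 kb with 7 genes in the parental list and of 240 kb with no other gene's midpoint in the resistant list. The resistant domain began at position 137070001 of chromosome 4, 240 kb from any parental border. The far anchor of the resistant-only 225 kb loop stood 7.5 kb from that border and 232.5 kb from the nearest parental border, so a border and a loop anchor of the resistant list alone lay side by side at Wnt4. Wnt7b went from 680 kb with 10 genes to 340 kb with 3 genes, and the resistant domain began at 85260001 of chromosome 15, 340 kb from any parental border. There the far anchor of the 315 kb loop stood 7.5 kb from the resistant border, but that loop was called in both lists, and more strongly in the parental one. Wnt3a and Wnt9a shared a domain of 590 kb with 21 genes in the parental list and of 270 kb with 7 genes in the resistant list. The resistant border at 59230000 of chromosome 11 lay 7.5 kb from the far anchor of the resistant Wnt3a loop, which again was found in both lists. Wnt3 and Wnt9b, which overlap, shared a domain that went from 650 to 350 kb, and that of Wnt5a went from 310 to 280 kb.

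**Figure D5:**
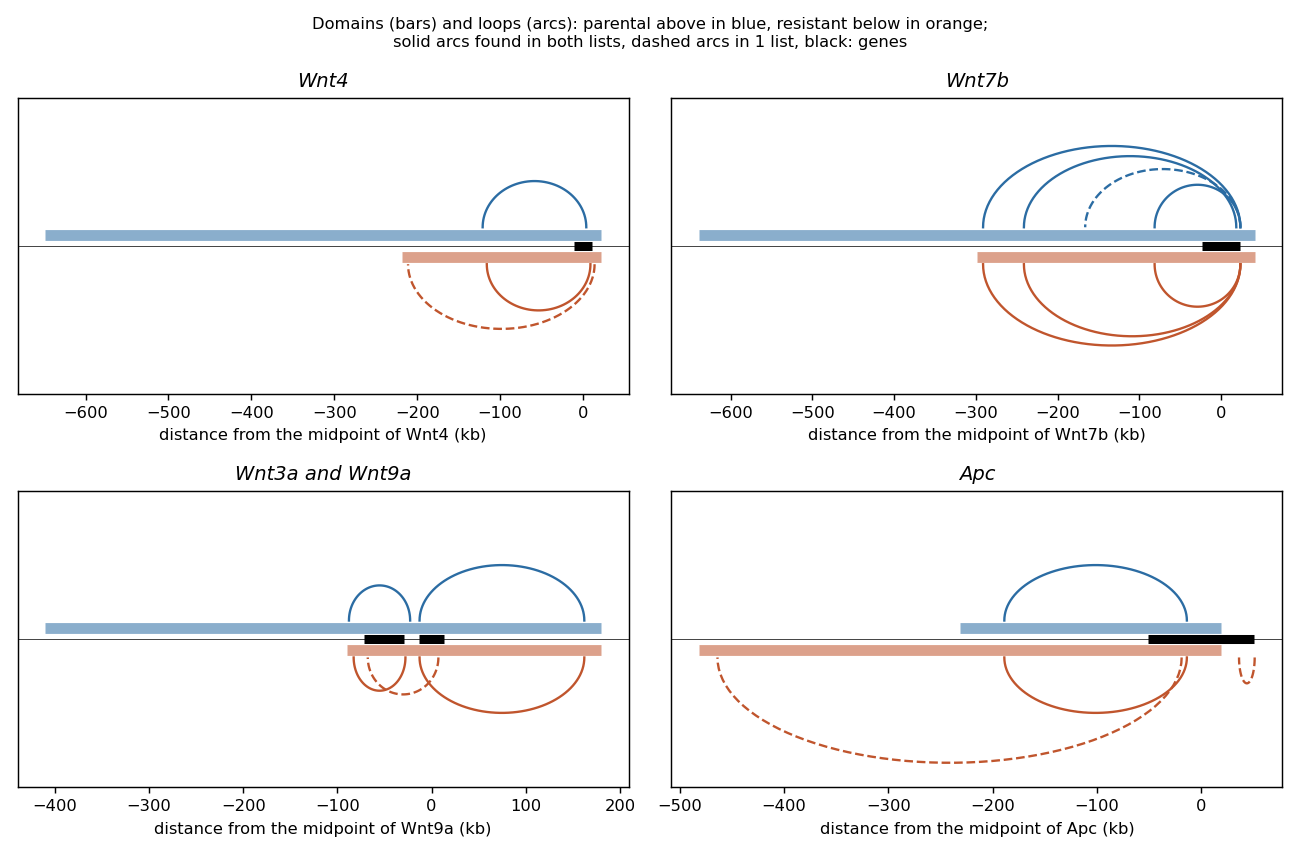
Domains (bars) and loops (arcs) around Wnt4, Wnt7b, Wnt3a with Wnt9a, and Apc, with distance from the gene's midpoint in kb on the horizontal axis; parental calls are above the line in blue and resistant calls below in orange, genes are black, solid arcs were found in both lists and dashed arcs in 1, and arc height follows the span. At Wnt4 the dashed 225 kb arc spans nearly all of the 240 kb resistant domain, while at Wnt7b the 315 kb arc that reaches the resistant border is solid in both lists.

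Among the receptors, the domain of Fzd6 went from 1410 to 680 kb, that of Fzd7 from 670 to 420 kb, that of Fzd9 from 470 to 360 kb and that of Fzd10 from 1620 to 540 kb. Rnf43 went from 885 to 605 kb. In the destruction complex, Axin1 went from 790 to 410 kb. The domain of Tcf7l1 went from 540 kb with 15 genes to 220 kb with no other gene's midpoint, with a resistant border 6.37 kb from the gene's lower edge. None of Fzd6, Fzd9, Fzd10, Axin1 and Tcf7l1 had a loop at an end, so no loop at the gene moved with these domains. The larger domains were those of Apc, from 250 to 500 kb, Fzd3, from 420 to 570 kb, and Sfrp2, from 810 to 1420 kb. At Apc the resistant-only body loop of 445 kb spanned most of the enlarged domain. At Sfrp2 the parental-only 480 kb loop lay within the smaller, parental domain.

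The nearest border itself differed by more than 20 kb between the lists for 6 members, as it did for 5002 of all 21631 genes. The distance between the parental and the resistant border was 560 kb at Fzd10, 400 kb at Axin1, 270 kb at Wnt3a and Wnt9a, 220 kb at Tcf7l1 and 150 kb at Fzd3. A border lay inside Wnt5b, Apc and Tcf7l2 in both lists, and inside Wnt5a in the resistant list alone, where the parental border was 10 kb away and 2.55 kb past the gene. The counts, 3 and 4 members, stand beside 7.91% and 8.28% of all genes. At Wnt5b the resistant-only end loop ran to one side of the inner border and the body loops to the other.

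A border was crossed by 0 of 28 parental and 1 of 25 resistant loops at members' ends, where 2.93% and 3.03% of loops at all gene ends crossed one. Within 20 kb of a border of their own list, 7 of 28 parental loops had an anchor (25%). In the resistant list 12 of 25 did (48.0%), against 28.3% and 30.4% of loops at all genes. No interval was computed for the members' shares, and their difference was not tested. All 3 resistant Wnt7b loops were among the 12, and parental Wnt7b loops were among the 7. In part the counts differ through loops found in both lists. The resistant 265 kb loop of Wnt7b lay 17.5 kb from a border and its parental match 22.5 kb. The Wnt3a loop found in both lists had an anchor near a border in the resistant list alone. The resistant list also had more borders overall. Several of the resistant-only loops had a far anchor close to a border that both lists share. It lay 7.5 kb from one at Ctnnb1, which is the only gene with its midpoint in its 380 kb domain, 12.5 kb from one for the Hdac11 loop of Wnt7a and 17.5 kb from one at Axin2.

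Neighbouring ligand genes lay at most 16.1 kb apart, far less than the sizes of their domains, so a shared domain was likely in either list. Wnt6 and Wnt10a (6.70 kb apart), Wnt1 and Wnt10b (11.7 kb apart), Wnt3a and Wnt9a, and Wnt3 and Wnt9b each shared a domain in both lists. Within the first 2 pairs, Wnt6 and Wnt1 had loops found in both lists and Wnt10a and Wnt10b had none. Apc and Wnt8a, 220 kb apart on chromosome 18, were separated by 1 border in both lists, Lef1 and Dkk2 by 3, and Fzd2 and Wnt9b by 4.

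Of 58 other genes of the pathway, 17 had a parental (29.3%) and 16 a resistant loop (27.6%) at an end, beside 23.3% and 23.8% of all genes. A loop in either list was present at 22 (37.9%), beside 33.9% of all genes. Parental-only loops lay at 6 of the 58 (10.3%) and resistant-only loops at 10 (17.2%), beside 13.6% and 14.2% of all genes. Both shares were nearer to those of all genes than the members' shares were. Wls, the carrier that takes Wnt proteins to the cell surface, had 2 parental-only loops, of 45 kb (6.55e-07) and 100 kb (0.000913). Porcn, the enzyme that attaches the lipid to Wnt proteins, had 1 resistant-only loop (2.01e-07). Kremen1 had 2 parental-only loops, of 285 kb (2.39e-05) and the weak one shared with Znrf3. The co-repressor gene Tle4 had 1 parental-only loop (4.17e-06). Csnk1e, a kinase that acts on Dishevelled, and Bcl9l, a co-activator of beta-catenin, had 1 resistant-only loop each (4.3e-06 and 1.12e-05).

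Of 17 target genes of the pathway, 8 had a parental loop at an end (47.1%), beside 23.3% of all genes. A resistant loop was also present at 8 (47.1%), beside 23.8%. A loop in either list lay at 10 (58.8%), beside 33.9% of all genes and 55.1% of the members. Parental-only loops lay at 4 (23.5%) and resistant-only loops at 5 (29.4%), beside 13.6% and 14.2% of all genes. A loop share above that of all genes was therefore not particular to the members. Parental-only loops with low p-values lay at Ephb3, a receptor that positions cells in intestinal crypts (1.77e-09), and at Id2, an inhibitor of helix-loop-helix factors (3.71e-07). Ccnd1, the cyclin D1 gene, had 2 parental-only loops (3.8e-06 and 2.46e-05), 1 resistant-only loop (0.000503) and 1 found in both lists. The transcription factor genes Jun and Sox9, the latter active in pancreatic ducts, had 1 resistant-only loop each (2.19e-05 and 0.000221). The largest difference among the target genes was at Cd44, a cell-surface receptor for hyaluronan, with 5 resistant loops, 3 of them resistant-only, against 1 parental loop and no parental-only one. A 215 kb resistant loop at Cd44 (2.23e-06) was found in both lists, but its parental match, within 5 kb at each anchor, was not counted at the gene. The contrast of 5 loops to 1 thus rests in part on the gene window.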

How the data were processed

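Hi-C calls of 3 parental and 3 resistant samples were used as deposited, with 1 loop list and 1 domain list per condition. Per the file headers, each loop carries a p-value from the authors' caller, and each domain, drawn on 10 kb bins apart from 0.439% of borders, a separation score. Per the submitters' processing notes, BWA was among the tools, and mm10 and hg19 among the builds. The callers, their settings and any pooling of replicates were not given in the sources used here. Calls were joined to both ends of 21631 protein-coding genes of GRCm38.p6. Loop matching was tested on simulated copies of the parental loops. The assignment of parental loops to genes was checked against a plain recount for a sample of genes. The border steps were not tested in this way. Loop matching allowed 10 kb per anchor and border matching 20 kb. The number of calls moves with read depth, which is unknown. Shares have exact Clopper-Pearson 95% intervals for counting error only. Members, gene lists and rules were chosen with earlier results of these data known. Members with any loop at an end, or a nearest border more than 20 kb apart between lists, are described in full. Of the other pathway and target genes, up to 6 each were taken by the largest difference of resistant-only minus parental-only loops, and examples are given. Motifs were searched in RefSeq promoter windows. The 13 alternatives changed windows, matching limits, thresholds and list lengths. Python 3.11.15, pandas 2.3.3, numpy 2.4.6, scipy 1.17.1 and matplotlib 3.10.9 were used.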

Additional observations from a re-analysis of the deposited data

How the results depend on the processing

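Of 80 values recomputed under 13 alternatives for 12 results, 61 stayed within the spread or within 1.5 times the reported count. The gene window set the number of loops: with the gene end inside the anchor bin, parental loops at members went from 28 to 15, parental-only loops from 14 to 8, resistant-only loops from 12 to 6 and members with a loop in both lists from 14 to 7. Gene starts alone, known for 33 members, gave 18 parental loops, 13 resistant loops, 6 resistant-only loops and 8 members in both lists, a setting that leaves out members by construction. Ends or bodies, an alternative chosen after seeing the data, gave 23 members in both lists. The matching limit set the shares: with identical bins, 21.4% of parental and 24.0% of resistant loops were found in both lists, with 22 parental-only and 19 resistant-only loops. Keeping only the strongest calls (3414 parental and 3584 resistant) gave a parental share of 73.7%, 5 parental-only and 7 resistant-only loops, and 4 parental and 6 resistant body loops. The 5 parental-only loops were those of Dkk1, Sfrp2, Tcf7l2 (2) and Lgr4, and the 7 resistant-only loops those of Wnt4, Wnt5b, Lgr6, Wnt7a, Lgr4, Axin2 and Wnt5a. With a stricter separation score, which keeps fewer domains and borders, 21 members in place of 43 had both domain borders found. A member whose own parental domain was dropped counts as not found, so this setting also leaves out members by construction. No paired analysis was possible because each condition has 1 list and the lists carry no replicate columns. Leaving out a replicate was not possible for the same reason. Depth is unknown, so a loop absent from a list was not called there, which does not show that the contact is absent.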
